A study of Mus musculus with 48 samples.

Results

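The 10 genes described here form the fibroblast growth factor (FGF) receptor 2 circuit of the mouse lung: 2 receptors (Fgfr2, ENSMUSG00000030849, and Fgfr1, ENSMUSG00000031565), 2 ligands (Fgf7, ENSMUSG00000027208, and Fgf10, ENSMUSG00000021732), 2 transcription factors induced by the pathway (Etv5, ENSMUSG00000013089, and Etv4, ENSMUSG00000017724) and 4 feedback inhibitors (Spry1, ENSMUSG00000037211, Spry2, ENSMUSG00000022114, Spry4, ENSMUSG00000024427, and Dusp6, ENSMUSG00000019960). They were taken by their Ensembl identifiers from the 42548 genes of the deposited count table, and all 10 were present. The table came from 24 RiboTag mice, animals that carry an HA-tagged ribosomal protein so that ribosome-bound RNA can be precipitated with an anti-HA antibody. Each mouse gave 1 epithelial and 1 whole lung library, 48 in all, sequenced from the 3′ ends of transcripts. The labels list the same anti-HA precipitation for both kinds of library, and do not say what sets the whole lung preparation apart. The driver of the tagged allele, the strain, the age of the mice, the doses and the time after injury are likewise not stated there.

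Saline was given to 6 mice (3 in batch S135 with Vehicle, 3 in batch S151 with Axum8 as the control agent). Bleomycin, a drug that injures the alveoli and causes fibrosis, with a control agent was given to 9 mice (3 in S061 and 2 in S135 with Vehicle, 4 in S151 with Axum8). Bleomycin with KIRA8, a small-molecule inhibitor of the endoplasmic reticulum stress sensor IRE1α, was given to 5 mice (3 in S061, 2 in S135). Bleomycin with 3G9, an antibody that blocks the activation of TGFβ by the integrin αvβ6, was given to 4 mice (all in S151). The mice are separate animals and serve as the replicates. Both sexes were used, and each arm within S061 and S151 held males and females. In S135 the saline mice were of both sexes, whereas all bleomycin control and KIRA8 mice were male. Below, the ± of a mean level is the SD between mice, and that of a fitted change is its standard error (SE).

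In the lung, Fgf7 and Fgf10 are made mainly by mesenchymal cells and bind the IIIb splice form of FGFR2 on neighbouring epithelial cells. Receptor activation drives the RAS-ERK kinase cascade, which induces the ETS-family transcription factors Etv4 and Etv5 together with inhibitors that damp the same cascade: Sprouty proteins, which act near the receptor, and Dusp6, a phosphatase that removes phosphate from ERK. The circuit is known for driving branching of the embryonic airways and for maintaining and regenerating alveolar type 2 cells in the adult. Reads from the 3′ end do not separate the IIIb from the IIIc form of Fgfr2.

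Library totals ran from 7163613 counts (S135) to 51797377 counts (S061). Levels are given as CPM, the count of a gene scaled to a common library total, and fitted changes as log2 fold changes from edgeR on the TMM scale, which sets the bulk of genes equal between libraries. Both scales are named where they part. In epithelial libraries of S135 the 10 most abundant genes held 46.2 to 49.3% of counts in saline mice. They held 38.8 and 43.2% in the bleomycin control mice of that batch. In S151 the shares were 38.8 to 51.0% in saline mice against 26.9 to 36.7% in bleomycin control mice. The lowest share in bleomycin control mice, 21.4%, was in S061, a batch without saline mice. The part of these shares in the shift given next was not tested. With total-count scaling the median gene shifted by 0.37 (log2) in the epithelial comparison of bleomycin with saline, and 3505 genes were called higher and 117 lower, against 787 and 721 with TMM. The corresponding counts in whole lung were 1675 and 308 with total counts, against 1162 and 800 with TMM. Treatment arms are compared within batches or with batch in the fit. Epithelial libraries of S061 held more RNA of genes scarce in epithelium: 1340 genes at least 8-fold lower in the epithelial than in the whole lung libraries of saline mice took 5.02 to 10.3% of their counts, against 0.249 to 0.9% in the other batches. Those saline libraries, all of S135 and S151, are part of the latter range. In bleomycin control mice, which did not enter the choice, the share was 5.02 to 7.34% in S061, 0.882 to 0.9% in S135 and 0.352 to 0.775% in S151. Symbols of epithelial, mesenchymal, endothelial and immune markers could not be matched to the table's identifiers, so the labelled compartments were not checked against those markers.

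The 250 bases before the outermost annotated transcription start (RefSeq, GRCm38.p6) were found for 7 of the 10 genes. The windows of Dusp6 and Fgfr2 are shown because these genes were called after bleomycin in both compartments on the TMM scale, and that of Etv5 because it is the other ETS factor of the circuit. Capitals mark GGAA, the core bound by ETS factors such as Etv4 and Etv5, or its reverse complement TTCC.
Dusp6, chr10:99262981-99263230, plus strand: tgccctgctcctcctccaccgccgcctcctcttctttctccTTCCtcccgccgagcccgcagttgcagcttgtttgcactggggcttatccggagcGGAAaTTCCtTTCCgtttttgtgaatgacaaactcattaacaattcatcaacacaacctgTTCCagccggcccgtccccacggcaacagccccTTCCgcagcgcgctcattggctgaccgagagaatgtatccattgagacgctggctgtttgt
Fgfr2, chr7:130266809-130267058, minus strand: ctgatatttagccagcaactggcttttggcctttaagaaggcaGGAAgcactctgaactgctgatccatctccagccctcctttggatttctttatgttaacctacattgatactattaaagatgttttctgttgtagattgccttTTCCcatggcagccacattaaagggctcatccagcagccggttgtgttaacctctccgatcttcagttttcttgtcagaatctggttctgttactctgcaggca
Etv5, chr16:22439571-22439820, minus strand: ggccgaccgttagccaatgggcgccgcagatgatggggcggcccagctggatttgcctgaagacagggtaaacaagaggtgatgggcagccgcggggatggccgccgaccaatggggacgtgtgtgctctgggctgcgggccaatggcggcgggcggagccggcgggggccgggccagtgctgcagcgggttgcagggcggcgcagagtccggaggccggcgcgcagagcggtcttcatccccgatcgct
The core was present 6 times before Dusp6 and 2 times before Fgfr2, while the Etv5 window held 0 matches. It is a short motif, found in 93.4% of 32851 mouse windows of the same length with a median of 3 matches. The longer ETS site CCGGAAGT (2.88% of windows, and it overlaps the core) and the AP-1 site TGANTCA (6.75%), searched on both strands, matched none of the 7 windows. A match describes letters in the window only.

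Bleomycin against saline asks what lung injury does to the circuit. After bleomycin, Etv4 went from nearly no counts to a measurable level in epithelium and rose in whole lung, and Dusp6 rose in both. Fgfr2 was the only member called lower, in both compartments on the TMM scale. The ligands, Fgfr1, Etv5 and the 3 Sprouty genes did not pass the test in either compartment. Thus 2 members were called higher and 1 lower of 10 tested in epithelium, where edgeR's quasi-likelihood test called 8.72% of 17291 genes at an adjusted p under 0.05. The same 3 members were called in whole lung, where 10.1% of 19345 genes were called. The median log2 change of the 10 genes was -0.07 in epithelium and -0.14 in whole lung, beside medians near 0 over all genes tested (-0.0016 and -0.0120).

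**Figure D1:**
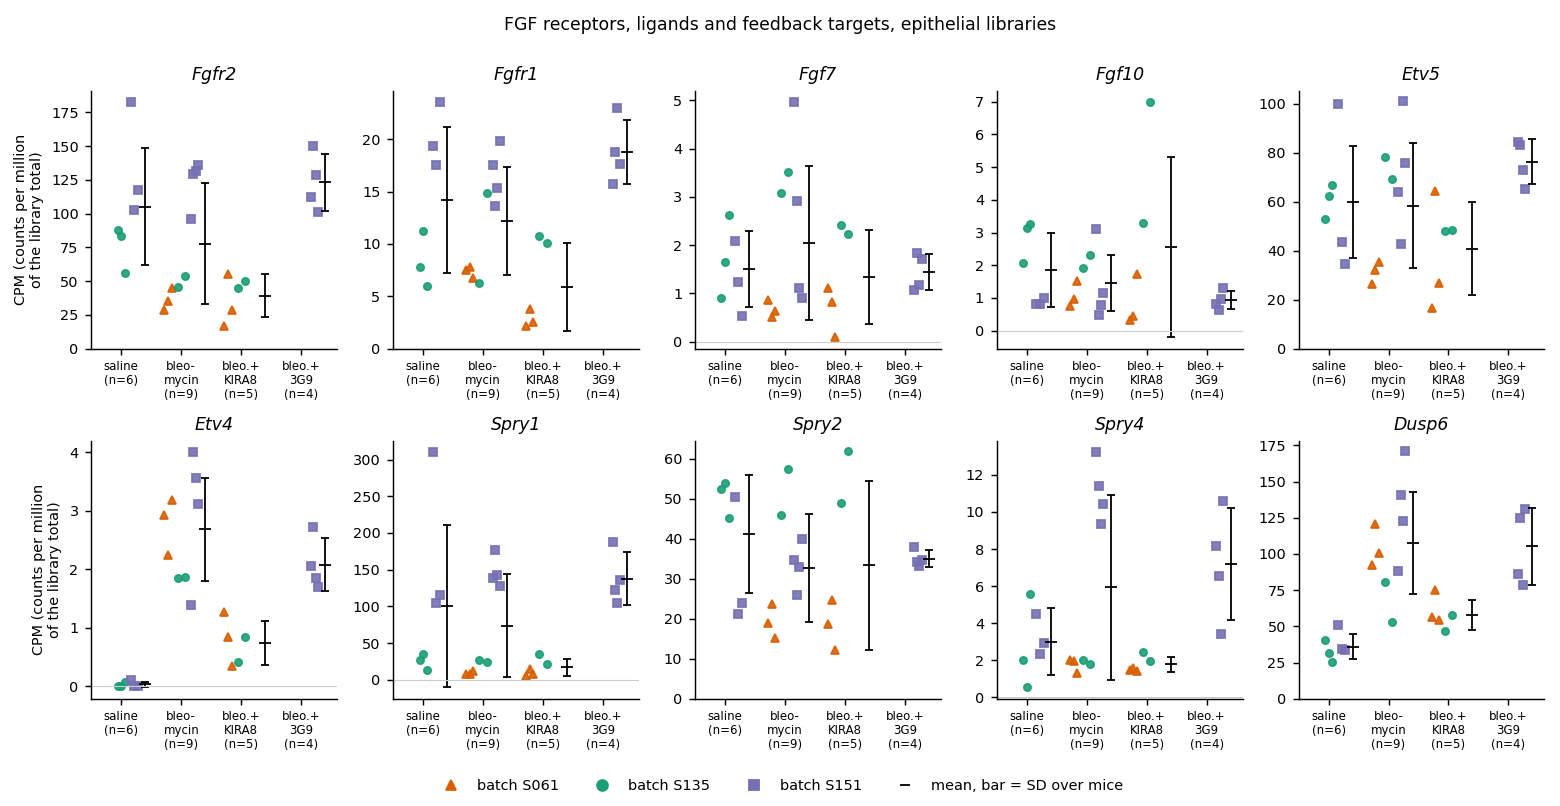
CPM of each gene in the 24 epithelial libraries, by arm (n = mice), with the batch given by the marker and mean ± SD at the right of each arm. Etv4 lay between 0 and 0.0976 CPM in saline mice and between 1.39 and 4.00 CPM in bleomycin control mice, and Dusp6 between 25.1 and 50.9 against 52.8 and 171 CPM.

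Etv4 had 4 counts in all in the epithelial libraries of the 6 saline mice, and 4 of those libraries held none. Its level was 0, 0 and 0.0627 CPM in the saline mice of S135 and 0.0976, 0 and 0 CPM in those of S151. The 4 counts correspond to 0.0296 CPM over the summed libraries, with an exact 95% Poisson interval of 0.00805 to 0.0757 CPM that covers counting error only. In bleomycin control mice the level was 2.93, 2.25 and 3.19 CPM in S061, 1.84 and 1.87 CPM in S135 and 1.39, 4.00, 3.57 and 3.11 CPM in S151, a mean of 2.68 ± 0.88 CPM (SD, n = 9). Every bleomycin library was above every saline library. The fitted change was 5.92 ± 0.64 (log2, SE, adjusted p = 1.4e-06, edgeR), a value that rests on the 4 saline counts. With so few, Etv4 passed the filter on low counts only through the arms given bleomycin, where it is higher. Within batches the fit gave 5.86 in S135 (adjusted p = 0.181) and 5.92 in S151 (adjusted p = 0.0104).

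In whole lung, Etv4 was already detected without injury: 0.261, 0 and 0.704 CPM in the saline mice of S135 and 0.625, 1.18 and 0.487 CPM in those of S151. After bleomycin it was 1.46, 1.64 and 1.33 CPM in S061, 1.79 and 0.684 CPM in S135 and 2.39, 4.6, 4.28 and 4.41 CPM in S151. The groups overlapped in S135, where bleomycin mouse 149 lay below a saline mouse, and did not overlap in S151. The fitted rise was 1.96 ± 0.45 (log2, SE, adjusted p = 0.00749, edgeR), and it was 2.21 within S151 (adjusted p = 0.0185) and 1.79 within S135 (adjusted p = 0.501).

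Dusp6, the ERK phosphatase, was at 40.2, 31.8 and 25.1 CPM in epithelium of the saline mice of S135 and at 50.9, 34.5 and 33.3 CPM in those of S151. Bleomycin control mice had 92.3, 121 and 101 CPM in S061, 80.4 and 52.8 CPM in S135 and 88.0, 141, 123 and 171 CPM in S151, so that no saline library reached a bleomycin library. The rise was 1.10 ± 0.16 (log2, SE, adjusted p = 4.5e-05, edgeR) and was called in all 15 fits that left out a mouse.

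Whole lung Dusp6 was higher to begin with, 159, 145 and 186 CPM in S135 and 124, 142 and 170 CPM in S151 in saline mice. It reached 323 and 215 CPM in the bleomycin mice of S135 and 235, 326, 228 and 284 CPM in those of S151, above all saline mice of the same batch. The S061 bleomycin mice, which have no saline mice in their batch, had 123, 235 and 189 CPM. The rise was 0.66 ± 0.14 (log2, SE, adjusted p = 0.00571, edgeR). Within S135 alone neither compartment's Dusp6 was called (adjusted p = 0.0732 in epithelium and 0.0797 in whole lung).

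Fgfr2, the receptor, was at 88.3, 83.4 and 55.9 CPM in epithelium of the saline mice of S135 and at 183, 103 and 117 CPM in those of S151. After bleomycin it was 45.8 and 54.0 CPM in S135, below all 3 saline mice, and 95.9, 129, 132 and 136 CPM in S151, where the groups overlapped. On the TMM scale the groups were apart in both batches: 68.1 to 105 against 44.0 to 58.8 in S135, and 127 to 184 against 85.9 to 118 in S151. The fitted change was -0.69 ± 0.17 (log2, SE, adjusted p = 0.0115, edgeR). With total-count scaling it was -0.34 (adjusted p = 0.239) and was no longer called, so the epithelial fall of Fgfr2 is a fall relative to the bulk of genes. Within single batches the TMM value was -0.78 in S135 (adjusted p = 0.0912) and -0.54 in S151 (adjusted p = 0.244).

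**Figure D2:**
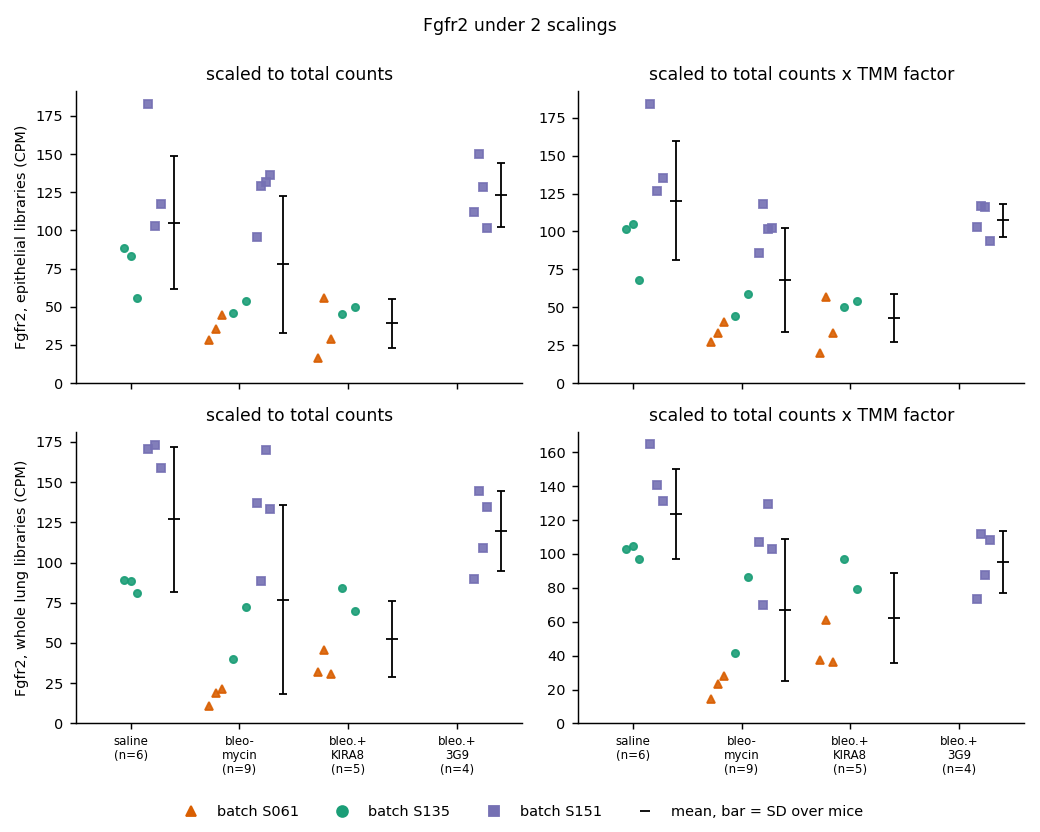
Fgfr2 in CPM by arm (n = mice), in epithelial (top) and whole lung (bottom) libraries, scaled to total counts (left) or to total counts times the TMM factor (right), with mean ± SD. In epithelium of batch S151 the saline and bleomycin mice overlap on the left and lie apart on the right (127 to 184 against 85.9 to 118).

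In whole lung, Fgfr2 was 88.9, 88.6 and 81.1 CPM in saline mice of S135 and 170, 173 and 159 CPM in those of S151. Bleomycin control mice had 40.3 and 72.5 CPM in S135, 137, 88.7, 170 and 133 CPM in S151 and only 11.1, 18.8 and 21.1 CPM in S061. In S151 the arms overlapped in CPM and lay apart on the TMM scale (131 to 165 in saline against 70.1 to 129). The fall was -0.66 ± 0.18 (log2, SE, adjusted p = 0.0270, edgeR) and was also called with total-count scaling (-0.55, adjusted p = 0.0484). The call was lost without bleomycin mouse 148 (adjusted p = 0.0682) or 225 (0.0583), without saline mouse 152 (0.0504) or 221 (0.0528), with the 2 arms fitted alone (0.0552), and within S135 (0.330) or S151 (0.177). In such bulk libraries, fewer epithelial cells and less Fgfr2 RNA per cell cannot be told apart.

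**Figure D3:**
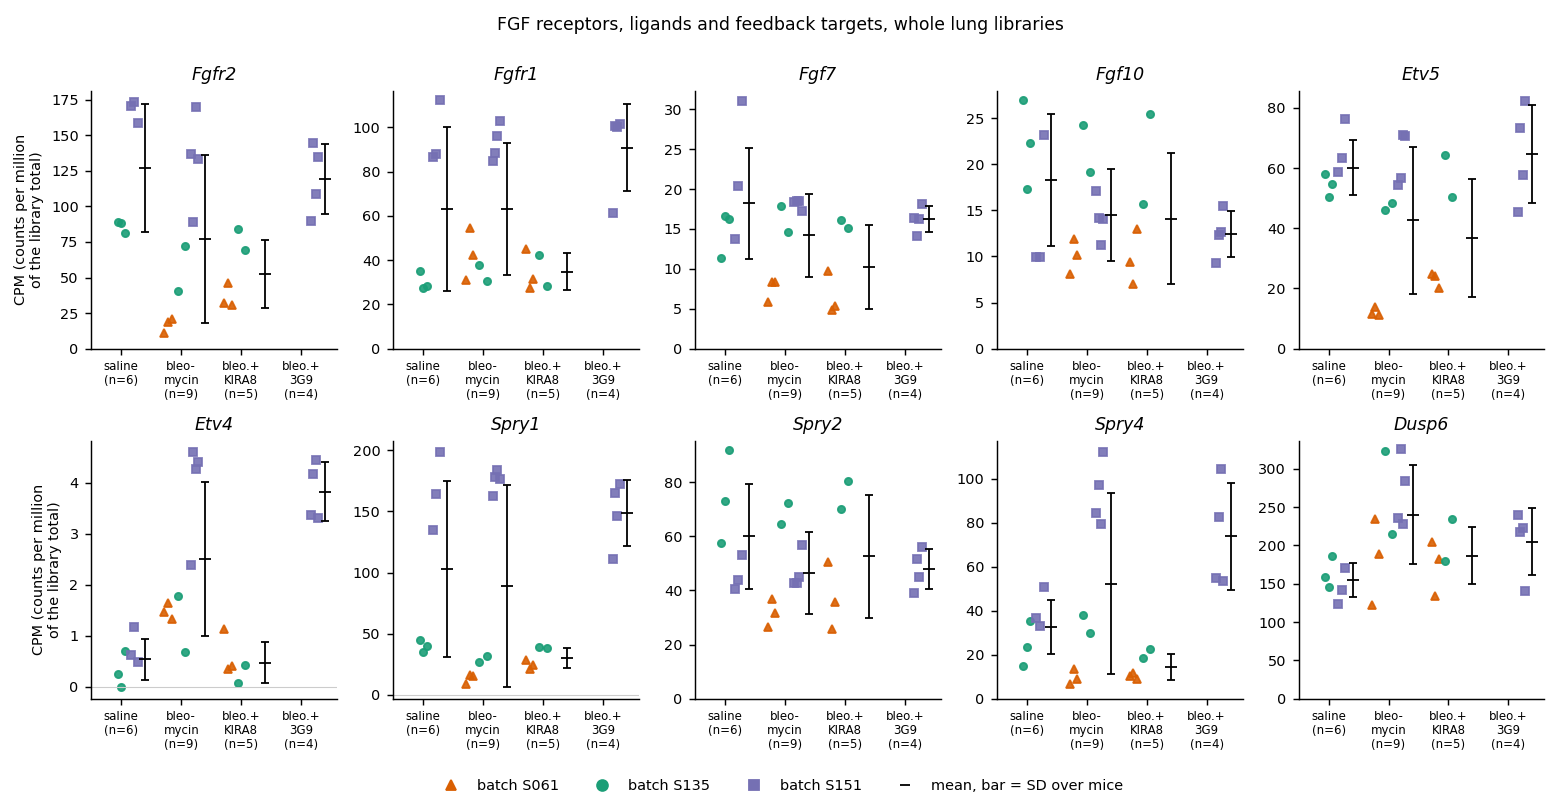
CPM of each gene in the 24 whole lung libraries, by arm (n = mice), with the batch given by the marker and mean ± SD at the right of each arm. Fgfr2 lay between 81.1 and 173 CPM in saline mice and between 11.1 and 170 CPM in bleomycin control mice, with the lowest values in batch S061.

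Fgfr1 is the receptor found mainly on mesenchymal and endothelial cells. In epithelium of S135 it was at 5.96 to 11.2 CPM in saline against 6.30 and 14.9 CPM in bleomycin control mice. In S151 it was at 17.6 to 23.5 against 13.6 to 19.9 CPM, and in bleomycin mice of S061 at 6.71 to 7.76 CPM. The fitted value of Fgfr1 was -0.21 ± 0.25 in epithelium (adjusted p = 0.687) and -0.01 ± 0.15 in whole lung (adjusted p = 0.985). Both values turned positive with total-count scaling (0.17 and 0.10), and neither was called. In S151 the epithelial bleomycin mice lay below the saline mice on the TMM scale (11.9 to 15.7 against 19.5 to 27.2).

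The ligands stayed low in epithelial libraries. Fgf7 was at 0.902, 1.65 and 2.63 CPM in saline and 3.07 and 3.51 CPM in bleomycin mice of S135, without overlap (on the TMM scale they overlapped), but at 0.522 to 2.08 against 0.903 to 4.96 CPM in S151, where they overlapped. The fitted value was 0.56 ± 0.48 (log2, SE, adjusted p = 0.537). Epithelial Fgf10 was at 2.08 to 3.26 CPM in saline against 1.92 and 2.30 CPM in bleomycin mice of S135. In S151 it was at 0.814 to 1.01 against 0.485 to 3.11 CPM, and in bleomycin mice of S061 at 0.767 to 1.51 CPM. The fitted value was 0.06 ± 0.47 (adjusted p = 0.971). In whole lung libraries the ligands are well measured. Fgf7 was at 11.3 to 16.6 CPM in saline against 14.6 and 17.9 CPM in bleomycin mice of S135. In S151 it was at 13.7 to 31.0 against 17.2 to 18.6 CPM. Fgf10 was at 17.3 to 27.0 against 19.2 and 24.2 CPM in S135, and at 9.89 to 23.2 against 11.3 to 17.1 CPM in S151. The bleomycin mice of S061, a batch without saline mice, held 5.81 to 8.36 CPM of Fgf7 and 8.14 to 11.9 CPM of Fgf10. The fitted values in whole lung were -0.16 ± 0.17 for Fgf7 (adjusted p = 0.593) and -0.13 ± 0.19 for Fgf10 (adjusted p = 0.719). The 95% intervals, -0.49 to 0.17 and -0.50 to 0.24, leave room for changes of these sizes.

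Etv5, the ETS factor that alveolar type 2 cells need to keep their identity, was not called in either compartment. Its epithelial level was 52.8, 62.2 and 67.0 CPM in saline and 78.4 and 69.3 CPM in bleomycin mice of S135, and 99.8, 43.5 and 34.5 against 63.8, 42.9, 101 and 76.0 CPM in S151. The fitted value was -0.19 ± 0.23 (log2, SE, adjusted p = 0.692), and 0.17 with total-count scaling. In whole lung it was -0.32 ± 0.13 (adjusted p = 0.113). No test compared Etv5 with Etv4 directly, but their 95% intervals in epithelium, -0.64 to 0.26 and 4.66 to 7.18, lie far apart.

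Among the Sprouty inhibitors, Spry4 differed between batches. In S151 its epithelial level was 4.49, 2.32 and 2.95 CPM in saline mice and 13.2, 11.4, 9.33 and 10.4 CPM in bleomycin mice, with no overlap. In S135 it was 2.01, 0.551 and 5.58 CPM in saline and 2.0 and 1.81 CPM in bleomycin mice. The value over both batches was 0.48 ± 0.42 (log2, SE, adjusted p = 0.543), against 1.37 within S151 (adjusted p = 0.0422) and -0.68 within S135 (adjusted p = 0.835). Of 15 fits that left out a mouse, 1 called it (1.05, adjusted p = 0.0434). That fit lacked saline mouse 153, the highest saline library of S135. Limma voom over all mice also called it (1.12, adjusted p = 0.0385), with 1926 genes called in all against 1508. Whether the 2 batches differ in their Spry4 response was not tested, and their control agents differ as well.

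Whole lung Spry4 was above 0 in both batches, with a value of 1.06 within S151 and 0.42 within S135 (adjusted p = 0.606). It was at 36.7, 33.3 and 50.8 CPM in saline and at 84.6, 97.1, 79.7 and 112 CPM in bleomycin mice of S151, and at 14.8, 23.7 and 35.4 against 38.3 and 30.0 CPM in S135, where they overlapped. The value was 0.65 ± 0.23 (log2, SE, adjusted p = 0.0736, edgeR). It was called under 6 of 10 alternative settings. These were total-count scaling (adjusted p = 0.0416), DESeq2 (0.0329), limma voom (0.0049), no batch S061 (0.0347), the 2 arms alone (0.0254) and S151 alone (0.0162). DESeq2 and limma voom called 2968 and 3468 genes in all, against 1962 with edgeR. Of 15 fits that left out a mouse, 2 called it, without bleomycin mouse 17 (0.0493) or saline mouse 153 (0.0142). The adjusted p over those 15 fits reached 0.184.

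Spry1 and Spry2 were not called. Spry1 gave -0.45 ± 0.25 in epithelium (adjusted p = 0.310) and -0.32 ± 0.14 in whole lung (adjusted p = 0.139), and Spry2 gave -0.28 ± 0.16 (adjusted p = 0.324) and -0.15 ± 0.13 (adjusted p = 0.489). Spry1 differed most by batch: epithelial libraries of all arms held 105 to 310 CPM in S151, 13.0 to 35.5 CPM in S135 and 4.78 to 14.8 CPM in S061. S151 lay above both other batches, which overlapped slightly. Whole lung libraries held 112 to 198, 26.5 to 44.7 and 8.60 to 28.5 CPM, with the same slight overlap between S135 and S061. Spry2 did not follow that order, with 45.1 to 62.0 CPM in epithelium of S135, 21.2 to 50.5 CPM in S151 and 12.2 to 24.7 CPM in S061.

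KIRA8 was compared with the bleomycin control mice, which also served in the comparison above, so both comparisons share libraries. In mice given KIRA8, Etv4 and Dusp6 lay lower than in bleomycin control epithelium, and in whole lung Fgfr2, Etv5 and Spry1 lay higher, but only Etv5 in whole lung was called. No member was called in epithelium by edgeR, where 0.26% of 17291 genes were called. There 2 of 10 members had an unadjusted p under 0.05, as had 1981 of the 17291 genes. DESeq2 called none of the 10 there (247 genes in all) and limma voom called 2 (1378 genes in all, against 45 with edgeR). With total-count scaling the median gene shifted by -0.21 in epithelium, and 3 genes were called higher and 158 lower, against 15 and 30 with TMM. In whole lung 1 member was called against 0.527% of all genes.

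**Figure D4:**
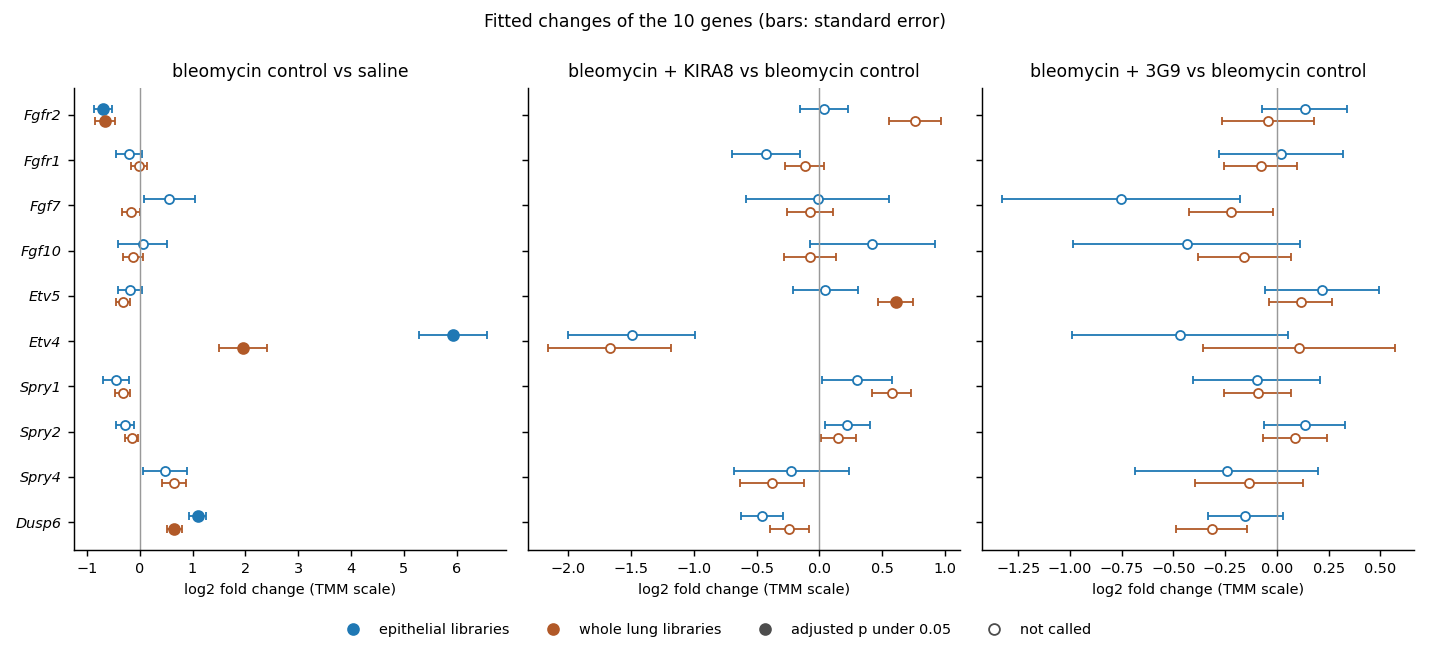
Log2 fold change (TMM scale) of each gene with its standard error, for bleomycin control against saline, KIRA8 against bleomycin control and 3G9 against bleomycin control, in epithelial and whole lung libraries. Filled points passed an adjusted p under 0.05; the horizontal scales differ between panels, and the largest value is epithelial Etv4 after bleomycin at 5.92.

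Epithelial Etv4 was at 1.27, 0.845 and 0.351 CPM in the KIRA8 mice of S061, against 2.93, 2.25 and 3.19 CPM in their bleomycin controls. In S135 it was 0.404 and 0.838 CPM against 1.84 and 1.87 CPM. The groups did not overlap in either batch. In S135 both KIRA8 mice lay above the saline mice of that batch (0 to 0.0627 CPM). The KIRA8 mice of S061 have no saline mice in their batch, and lay above the highest saline library of the other batches (0.0976 CPM, S151). The fitted value was -1.49 ± 0.51 (log2, SE, adjusted p = 0.228, edgeR) and was not called. It was called by limma voom (-1.91, adjusted p = 0.0058), and edgeR's adjusted p ran from 0.187 to 0.443 over the 14 fits that left out a mouse. The counts behind these values were 6 to 34 per KIRA8 library.

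Epithelial Dusp6 was at 56.2, 75.0 and 54.3 CPM in the KIRA8 mice of S061 against 92.3, 121 and 101 CPM in controls, without overlap. In S135 it was 46.8 and 57.8 CPM against 80.4 and 52.8 CPM, with overlap. The value was -0.46 ± 0.17 (log2, SE, adjusted p = 0.259, edgeR), and limma voom called it (-0.49, adjusted p = 0.0316). The S061 epithelial libraries of KIRA8 mice also held more RNA of genes scarce in epithelium, 7.42 to 10.3% of counts against 5.02 to 7.34% in controls, and more of 146 genes limited to that batch, 9.25 to 12.7% against 6.01 to 8.59%. Their part in the Etv4 and Dusp6 values was not tested. In S135, where the scarce genes took 0.586 to 0.885% against 0.882 to 0.9%, the fitted values were -1.51 for Etv4 (adjusted p = 0.861) and -0.23 for Dusp6 (adjusted p = 0.871).

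In whole lung, Etv5 was at 24.8, 24.3 and 20.0 CPM in the KIRA8 mice of S061 against 11.6, 13.8 and 11.2 CPM in controls, and at 64.5 and 50.4 against 46.1 and 48.4 CPM in S135. No KIRA8 mouse overlapped a control of its batch in CPM, but on the TMM scale the groups of S135 overlapped (57.3 to 74.2 against 47.8 to 57.6). The rise was 0.61 ± 0.14 (log2, SE, adjusted p = 0.0487, edgeR), close to the threshold. The call was lost, at adjusted p between 0.0545 and 0.139, in 11 of 14 fits that left out a mouse: bleomycin mouse 17, 31, 45, 148, 208R, 225 or 204, or KIRA8 mouse 20, 32, 41 or 154. It was kept without bleomycin mouse 149 or 206 or KIRA8 mouse 155. Within S061 the value was 0.88 (adjusted p = 0.0414) and within S135 it was 0.30 (adjusted p = 0.678). The call was also lost with total-count scaling (0.0776), without the filter on low counts (0.0553), with sex as a term (0.0535), without batch S061 (0.607) and with the 2 arms alone (0.0634).

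Fgfr2 and Spry1 lay higher with KIRA8 in the same whole lung libraries. Fgfr2 was at 31.8, 45.8 and 30.9 CPM against 11.1, 18.8 and 21.1 CPM in S061, without overlap, and at 84.3 and 69.6 against 40.3 and 72.5 CPM in S135, with overlap (0.76 ± 0.21, adjusted p = 0.0789, edgeR). Spry1 was at 28.5, 21.2 and 24.7 against 8.60, 16.3 and 15.3 CPM in S061 and at 39.3 and 38.1 against 26.5 and 32.0 CPM in S135, without overlap in either (0.57 ± 0.15, adjusted p = 0.0720). Both were called by DESeq2 (adjusted p = 0.0108 and 0.0095) and by limma voom (0.0385 and 0.0413). These tools called 701 and 791 genes in all, against 102 with edgeR. Of 14 fits that left out a mouse, 1 called Fgfr2, without bleomycin mouse 149 (0.88, adjusted p = 0.0287), and 0 called Spry1. In the whole lung comparison of bleomycin with saline the values were -0.66 for Fgfr2, -0.32 for Etv5 and -0.32 for Spry1, and the bleomycin control libraries enter both comparisons with opposite sign.

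Whole lung Etv4 was 1.14, 0.355 and 0.404 CPM with KIRA8 against 1.46, 1.64 and 1.33 CPM in S061, and 0.0728 and 0.432 against 1.79 and 0.684 CPM in S135, lower without overlap in both. The KIRA8 levels of S135 rest on very few Etv4 counts, in libraries of 11571126 to 13740617 counts in all. The fitted value of whole lung Etv4 was -1.67 ± 0.49 (log2, SE, adjusted p = 0.103, edgeR). It was called by DESeq2 (adjusted p = 0.0082) and by limma voom (0.0385). Of 14 fits that left out a mouse, 1 called it, without KIRA8 mouse 20 (-2.15, adjusted p = 0.0465). Dusp6 in whole lung gave -0.24 ± 0.16 (adjusted p = 0.476). Spry4 was 18.4 and 22.7 CPM against 38.3 and 30.0 CPM in S135, without overlap, but 8.94 to 11.8 against 6.72 to 13.3 CPM in S061 (-0.38 ± 0.26, adjusted p = 0.502).

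The remaining genes showed no call with KIRA8. Fgf7 gave -0.01 ± 0.57 in epithelium and -0.07 ± 0.18 in whole lung (adjusted p = 1 and 0.893). Fgfr1 in epithelium of S061 was 2.17 to 3.79 CPM against 6.71 to 7.76 CPM in controls, without overlap, but 10.1 and 10.7 against 6.30 and 14.9 CPM in S135 (-0.43 ± 0.27, adjusted p = 0.575). Epithelial Fgf10 in S135 was 3.30 and 6.98 against 1.92 and 2.30 CPM, from 49 and 50 counts in the KIRA8 libraries, and 0.336 to 1.72 against 0.767 to 1.51 CPM in S061 (0.42 ± 0.50, adjusted p = 0.810). Spry2 gave 0.22 ± 0.18 in epithelium (adjusted p = 0.683) and 0.15 ± 0.14 in whole lung (adjusted p = 0.639).

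3G9 was compared with the bleomycin control mice, again sharing their libraries, and its own mice lie in S151 alone. No member was called in epithelium, where edgeR called 0% of all genes (566 genes and no member had an unadjusted p under 0.05), DESeq2 called 36 genes and limma voom 2, none of them a member. No member was called in whole lung either, with 0.196% of genes called by edgeR, no member at an unadjusted p under 0.05 and none called by DESeq2 or limma voom. Epithelial Etv4 was 2.05, 2.72, 1.85 and 1.70 CPM with 3G9, inside the range of the S151 controls, 1.39 to 4.00 CPM (-0.47 ± 0.52, 95% interval -1.49 to 0.55). Whole lung Etv4 was 3.38, 4.18, 4.45 and 3.31 CPM, against 2.39 to 4.6 CPM (0.11 ± 0.46).

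Dusp6 with 3G9 was at 86.1, 125, 78.6 and 131 CPM in epithelium and at 239, 217, 222 and 141 CPM in whole lung, against 88.0 to 171 and 228 to 326 CPM in the S151 controls. Its values were -0.15 ± 0.18 (95% interval -0.50 to 0.20) and -0.32 ± 0.17 (-0.65 to 0.02). Spry4 was at 8.18, 6.55, 3.40 and 10.6 CPM in epithelium against 9.33 to 13.2 CPM (-0.24 ± 0.44). Fgfr2 was at 102 to 150 CPM against 95.9 to 136 CPM in epithelium (0.13 ± 0.21, 95% interval -0.27 to 0.54) and at 89.9 to 144 against 88.7 to 170 CPM in whole lung (-0.04 ± 0.22). The other 6 genes ran from -0.75 ± 0.57 (Fgf7) to 0.22 ± 0.28 (Etv5) in epithelium and from -0.22 ± 0.20 (Fgf7) to 0.11 ± 0.15 (Etv5) in whole lung, with adjusted p of 0.985 or above. The intervals allow changes of up to about these bounds in either direction, so they do not show that 3G9 left the circuit unaltered.

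Each mouse's epithelial library was then compared with its whole lung library. In saline mice Fgf7, Fgf10, Spry4, Fgfr1 and Dusp6 were lower in the epithelial library of a mouse than in its whole lung library, while Fgfr2 and Etv5 were higher on the TMM scale only. With the mouse as a block, edgeR called 2 of 9 tested members higher and 5 lower, against 57.5% of all genes, so a call by itself is common here. Etv4 was too low to be tested in saline mice. In bleomycin control mice 3 of 10 were called higher and 5 lower, against 60.8% of genes.

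**Figure D5:**
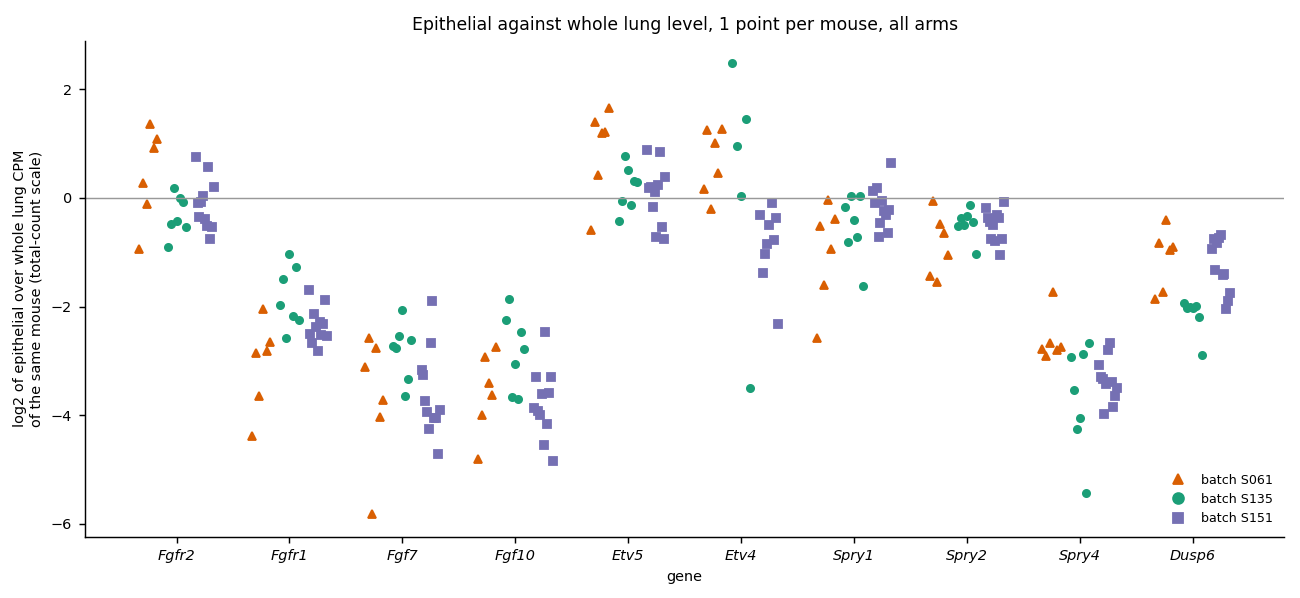
Log2 ratio of epithelial to whole lung CPM within each mouse (total-count scale), all arms, with the batch given by the marker. The 4 saline mice without Etv4 counts in epithelium have no Etv4 point. Fgf7, Fgf10, Fgfr1, Spry2, Spry4 and Dusp6 are below 0 in all 24 mice. The median of all genes is also below 0 on this scale (-0.84 in the fit to saline mice), and Spry2 lies near it.

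Total-count CPM was lower in epithelium in 24 of 24 mice for Fgf7 (median log2 ratio -3.29), Fgf10 (-3.60), Spry4 (-3.19), Fgfr1 (-2.35), Dusp6 (-1.58) and Spry2 (-0.49). In fits with that scaling the median gene was at -0.84 in saline and -0.49 in bleomycin control mice. Spry2 lay near those medians (-0.58 and -0.56). The share of all genes lower in every mouse is not given here. On the TMM scale the fitted values in saline mice were -2.92 ± 0.27 for Fgf7, -2.66 ± 0.30 for Fgf10, -2.79 ± 0.30 for Spry4, -1.31 ± 0.17 for Fgfr1 and -1.35 ± 0.20 for Dusp6. These 5 were called under both scalings, in saline and in bleomycin control mice. Among the Sprouty genes Spry4 was called lower, whereas Spry1 (0.36 ± 0.27, adjusted p = 0.265) and Spry2 (0.18 ± 0.16, adjusted p = 0.341) were not called in saline mice on the TMM scale, and the difference between the genes was not tested. Without saline mouse 153 Spry1 was called (0.63, adjusted p = 0.0269).

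For the other members the scaling decided the direction. In saline mice the median of all genes was -0.84 with total counts, against -0.06 with TMM, and 1150 genes were called higher and 8251 lower with total counts, against 4059 and 4506 with TMM. Fgfr2 was 0.48 ± 0.14 (adjusted p = 0.0135) with TMM but -0.29 (adjusted p = 0.117) with total counts, and its CPM was higher in epithelium in only 1 of 6 saline mice. Etv5 was 0.69 ± 0.16 (adjusted p = 0.0029) with TMM and -0.076 (adjusted p = 0.732) with total counts. Spry2 went from 0.18 to -0.58 (adjusted p = 0.0119). Hence Fgfr2 and Etv5 were enriched in epithelium relative to most genes, not in their share of the counts.

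In bleomycin control mice Etv5 was 1.13 ± 0.14 (adjusted p = 1.4e-05) with TMM and 0.64 (adjusted p = 0.0175) with total counts, and its CPM was higher in epithelium in 8 of 9 mice. Fgfr2 was 0.79 ± 0.14 (adjusted p = 0.00029) and 0.30 (adjusted p = 0.219). Etv4 was 0.74 ± 0.26 (adjusted p = 0.0244) and 0.25 (adjusted p = 0.505), and its call was lost without bleomycin mouse 17 (0.0642), 45 (0.0597), 149 (0.0515) or 206 (0.0588), without batch S061 (0.56, adjusted p = 0.200) and without the filter on low counts (0.0879). Spry1 was 0.18 with TMM (adjusted p = 0.316) and -0.32 with total counts (adjusted p = 0.0285), while without batch S061 it was called higher (0.39, adjusted p = 0.0287). Spry2 was -0.06 (adjusted p = 0.719) and -0.56 (adjusted p = 0.00088). With total counts 1960 genes were called higher and 7477 lower in these mice, against 4771 and 4728 with TMM. Fgf7 (-2.56), Fgf10 (-2.96), Spry4 (-2.57), Fgfr1 (-1.86) and Dusp6 (-0.69) were called lower, as in saline mice.

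The Etv4 ratio differed by batch after bleomycin. Epithelial CPM exceeded whole lung CPM in all 3 bleomycin mice of S061 and both of S135, and was below it in all 4 of S151 (1.39, 4.00, 3.57 and 3.11 against 2.39, 4.28, 4.6 and 4.41 CPM, in the order of mice 208R, 206, 225 and 204). The difference between batches was not tested.

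Whether the response to bleomycin differed between compartments was tested with the mouse as a block. The Etv4 response was larger in epithelium by 3.89 ± 0.90 (log2, SE, unadjusted p = 0.00037, adjusted p = 0.103, edgeR), which did not pass over all genes. It passed in 2 of 6 alternatives. These were DESeq2 (3.80, adjusted p = 0.0050, 178 genes called in all against 29) and total-count scaling (4.06, adjusted p = 0.0399). Of 15 fits that left out a mouse, 1 passed (5.45, adjusted p = 0.0320). That fit lacked saline mouse 230, whose epithelial Etv4 level was the highest among saline mice (0.0976 CPM). The size of the difference rests on the 4 Etv4 counts of saline epithelium, and Etv4 did not pass the filter on low counts in saline mice alone. No member was called by the main test, and 0.162% of 17956 genes were. An unadjusted p under 0.05 was held by 1 of 10 members and by 1627 of those genes. Dusp6 differed by 0.39 ± 0.19 (adjusted p = 0.570) and Fgfr2 by -0.04 ± 0.18 (adjusted p = 0.990). With total counts 122 genes were called higher and 8 lower, against 20 and 9 with TMM.

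For KIRA8 no member was called either, against 0.00548% of 18243 genes. An unadjusted p under 0.05 was held by 2 of 10 members and by 2321 of those genes. Fgfr2 differed by -0.81 ± 0.21 (adjusted p = 0.194, and 0.0323 with DESeq2, which called 158 genes in all against 1), with a fitted value of 0.76 in whole lung and 0.04 in epithelium. The median gene shifted by -0.20 with total-count scaling, where Fgfr2 differed by -1.04 (adjusted p = 0.135). Etv5 differed by -0.67 ± 0.26 (adjusted p = 0.294). For 3G9 no member was called, 0% of genes were, and no member had an unadjusted p under 0.05, while 416 genes had; DESeq2 called none of the 10.

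Whether the 6 targets of the ERK cascade varied together from mouse to mouse was then computed. Among the 24 mice, with each arm and batch centred on its mean, 15 pairs of Etv5, Etv4, Spry1, Spry2, Spry4 and Dusp6 were correlated in each compartment, 30 in all. No pair passed Benjamini-Hochberg adjustment over the 30, while 5, all in whole lung, had an unadjusted permutation p under 0.05. In whole lung 14 of 15 coefficients were positive (median r 0.36, range -0.21 to 0.61), and in epithelium 12 of 15 (median r 0.17, range -0.13 to 0.60). The pairs share libraries and their total-count scaling, so their signs are not independent. The share of positive coefficients among other genes was not tested, so these counts do not show that the 6 targets vary together more than other genes.

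The 4 pairs with the lowest permutation p were in whole lung. Etv5 and Spry1 gave r = 0.61 (permutation p = 0.0034, adjusted 0.0942) and rho = 0.67 (p = 0.0021, adjusted 0.0636), with r = 0.48 without the 2 mice farthest from the median of Etv5. Spry1 and Spry2 gave r = 0.60 (permutation p = 0.0063, adjusted 0.0942), rho = 0.60 (p = 0.0111, adjusted 0.133) and r = 0.54 without 2 mice. Etv4 and Dusp6 gave r = 0.52 (permutation p = 0.0149, adjusted 0.137), rho = 0.55 (p = 0.0178, adjusted 0.133) and r = 0.50 without 2 mice. Spry4 and Dusp6 gave r = 0.56 (permutation p = 0.0183, adjusted 0.137), rho = 0.55 (p = 0.0174, adjusted 0.133) and r = 0.60 without 2 mice. In epithelium Etv5 gave r = 0.60 with Spry2 (permutation p = 0.113, adjusted 0.339) and r = 0.59 with Spry1 (permutation p = 0.0648, adjusted 0.271), which fell to 0.28 and 0.30 without 2 mice.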

How the data were processed

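The 48 libraries (24 mice, an epithelial and a whole lung library each) were prepared by anti-HA precipitation and a Lexogen QuantSeq Forward kit, per the labels' protocols. The authors deposited 1 table of counts, whole numbers per Ensembl gene and library with no normalization. STAR 2.5.2b and the GRCm38 build were used, per the submitters' processing notes, while the sources used here do not name the counting program or annotation. Columns were matched to samples by the mouse number and a compartment letter in their names (E read as epithelial, I as whole lung). The column of whole lung 3G9 mouse 218 carries an unexplained suffix.

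Counts were tested in R 4.3.3 with the quasi-likelihood test of edgeR 4.0.16 (filterByExpr, TMM scaling, robust dispersions, Benjamini-Hochberg adjustment over all genes, called at an adjusted p under 0.05). The 24 libraries of each compartment were modelled together, on arm plus batch. Compartments were compared with the mouse as a block, since both libraries of a mouse come from the same animal, and differences of response had a batch term per compartment. Standard errors are the log2 fold change over the root of F, and 95% intervals take the estimate as normal. Alternatives were RLE size factors, total-count scaling, no filter on low counts, DESeq2 1.42.0, limma voom 3.58.1 with quality weights, sex as a term, the arms alone, single batches and each mouse left out. Total-count scaling was chosen after seeing the data, the others were listed earlier. Correlations used log2(CPM + 0.5) and 100000 permutations of mice within arm and batch, two-sided. The scripts were tested on simulated data.

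Each comparison was computed for all 10 genes. Their identifiers came with the definition of the gene group. The reference table (GRCm38.p6) matched 0 of the table's identifiers, so lists of other FGF and ERK pathway genes and of cell type markers were not applied. Members and lists were chosen with earlier results of these data known. Sequences are from RefSeq. Counting intervals cover counting error only.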

Additional observations from a re-analysis of the deposited data

Results flagged for a closer look

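Among the 80 groups of 4 to 9 mice screened (a gene, arm and compartment each), 2 held a library far from the others, where chance alone marks about 1 group in 20. Whole lung Fgfr1 with 3G9 was 61.3 CPM in mouse 218, against 100.01 to 101.48 CPM in the other 3 mice. That library is the one whose column carries an unexplained suffix. Epithelial Spry1 in saline mice was 310 CPM in mouse 230 of S151, against 115 CPM in the next highest of the 6, and the group spans batches with different Spry1 levels.

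Etv5 moved in opposite directions in the compartments of S135, with no overlap of CPM between arms in either. Bleomycin against saline gave a log2 ratio of mean CPM of 0.28 in epithelium and -0.20 in whole lung, on 2 and 3 mice. On the TMM scale the epithelial arms overlapped (75.2 to 75.6 against 60.9 to 81.6). The difference was not tested within that batch, and over all batches it was 0.20 ± 0.21 (adjusted p = 0.847, edgeR). KIRA8 against bleomycin gave -0.62 in epithelium and 0.28 in whole lung, on 2 mice each, and on the TMM scale the whole lung arms overlapped (57.3 to 74.2 against 47.8 to 57.6). That too was not tested within the batch, and over all batches it was -0.67 ± 0.26 (adjusted p = 0.294, edgeR). Both comparisons share the 2 bleomycin mice.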

How the results depend on the processing

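Among the recomputed values of single genes, 2058 kept direction and side of the threshold, 39 lost a call, 28 gained one, 137 changed sign without being called under either setting, and 4 changed sign with a call under one. The number of members called fell to 0 within S135 for bleomycin against saline, in epithelium and in whole lung alike, where 2 mice face 3. For KIRA8 against bleomycin in whole lung 1 member was called, with 102 genes in all. The number was 0 with total-count scaling, which called 20 genes in all. It was also 0 with no filter on low counts, sex as a term, the 2 arms alone, without S061 and within S135. DESeq2 and limma voom called 4 members each, with 701 and 791 genes in all. The number was 0 to 2 over the fits that left out a mouse. For KIRA8 in epithelium limma voom called 2, with 1378 genes in all. For the difference of the bleomycin response DESeq2 and total-count scaling called 1 each, with 178 and 130 genes in all. Leaving out a mouse gave 0 to 1 there. For the difference of the KIRA8 response DESeq2 called 1, with 158 genes in all. Totals over all genes are not given here for the other settings, so those member counts have no share of all genes beside them. With libraries of S135 and S151 only, 1 correlated pair passed. Some of these settings hold fewer mice, and the causes of the differences between settings were not tested.

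Total-count scaling turned 4 compartment values that were called under either scaling: in saline mice Fgfr2 to -0.29, Etv5 to -0.076 and Spry2 to -0.58, and in bleomycin control mice Spry1 to -0.32. The uncalled value of Spry1 in saline mice turned as well (to -0.41). No other alternative turned a called value. Leaving out the pairing of libraries by mouse (no replicate block) left 7 members called in saline and 8 in bleomycin control mice, as with it. It left 0 for each difference of response. With the pairing, 57.5 and 60.8% of all genes were called in saline and bleomycin control mice. The share without it is not given here.

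Etv4 rests on few counts (0 to 3 per saline epithelial library), as do Fgf7 and Fgf10 in epithelium, so changes below their intervals could not be detected there. Batch S061 has no saline mice. Batch S151 and its control agent cannot be told apart.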
